A study of Mus musculus with 8 samples.

Results

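Macrophages without a functional vitamin D receptor gene (Vdr-/-) were examined with and without calcitriol, the hormonal form of vitamin D. The members were the 4 Vdr-/- arrays of a series of 8 arrays, chosen by the genotype and treatment in their labels, and all 22626 probe sets other than controls were considered. Vdr-/- cells came from mice with the Vdr tm1 Rge allele, and the other 4 arrays held wild-type cells (WT). Each sample's source is named as bone marrow derived macrophages, although the shared protocol text also describes macrophages elicited in the peritoneum. By that protocol, bone marrow cells were cultured for 7 days in medium with 50 ng/ml of the macrophage growth factor M-CSF. The 4 Vdr-/- arrays held untreated cells, cells given calcitriol, cells given interferon gamma (IFN-gamma), and cells given both agents, for 24 to 48 hours. The sources used here give neither the doses nor the exact time of each treatment. Each condition had 1 array, and nothing in the labels says how many mice or cultures stood behind it.

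Calcitriol acts through the vitamin D receptor, a nuclear receptor that binds DNA as a partner of the retinoid X receptors and switches genes on or off. Its best known direct target is Cyp24a1, the gene of the enzyme that degrades calcitriol, and in human macrophages it also acts on genes of antimicrobial and surface proteins. IFN-gamma activates macrophages and induces antigen presentation and cell-autonomous defence genes. Cells without the receptor serve as the control for effects of calcitriol that need it. The question answered here is which probe sets differed between Vdr-/- macrophages with and without calcitriol.

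Calcitriol was compared with its absence in 2 Vdr-/- array pairs, 1 without and 1 with IFN-gamma. The spread came from how far the pairs of each genotype disagreed, moderated by limma toward a spread shared by probe sets of similar signal. That shared spread carried 21.0 prior degrees of freedom beside 2 residual ones, so the standard errors and p-values rest mostly on it. A p-value thus measures only spread among these arrays, and mostly that of other probe sets. Of 18058 probe sets tested, 35 (0.194%) passed limma's test at an adjusted p under 0.05, all 35 of them higher with calcitriol. None was called lower, although 374 were lower and 773 higher at an unadjusted limma p under 0.05. The 35 probe sets comprised 31 singly named genes and 4 probe sets with no single gene name. Their fitted changes ran from 1.53 to 4.46 on the log2 scale, with a median of 2.24 and standard errors from 0.316 to 0.756.

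The 3' to 5' signal ratios of control transcripts, which rise when RNA or its copies are incomplete at the 5' end, differed among these arrays along the same line as the treatment. For Gapdh, a control transcript read at both ends, the 3' signal over the 5' signal was 4.82 on the array labelled Vdr-/- untreated and 0.853 on the Vdr-/- calcitriol array. With IFN-gamma the ratio was 3.06 without calcitriol and 1.07 with it. Both Vdr-/- arrays without calcitriol thus had a higher Gapdh ratio than both with it, and the groups did not overlap. In wild type the order in the pair without IFN-gamma was the opposite, with 1.11 untreated and 7.67 with calcitriol, and with IFN-gamma the ratios were 1.04 and 1.65. The beta-actin ratio was 3.27, 1.39, 1.53 and 1.48 on the untreated, calcitriol, IFN-gamma and IFN-gamma plus calcitriol Vdr-/- arrays. In the same order it was 18.4, 2.46, 3.63 and 3.18 for the spiked bacterial transcript ThrX. For the spiked TrpnX it was 3.26, 1.03, 2.16 and 1.53, and for LysX 2.92, 1.12, 3.23 and 2.42. For each of these controls too, both Vdr-/- arrays without calcitriol were above both with it, narrowly so for beta-actin with IFN-gamma. The Gapdh 5' probe set itself read 226, 3858, 354 and 2788 on the untreated, calcitriol, IFN-gamma and IFN-gamma plus calcitriol arrays, in deposited signal units. The Gapdh 3' probe set read 1090, 3290, 1085 and 2997 on the same arrays. Across tested probe sets the untreated array correlated with the other Vdr-/- arrays at r = 0.795 to 0.809, and those 3 among themselves at 0.855 to 0.897. The part of these ratios in the results below was not tested.

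**Figure D1:**
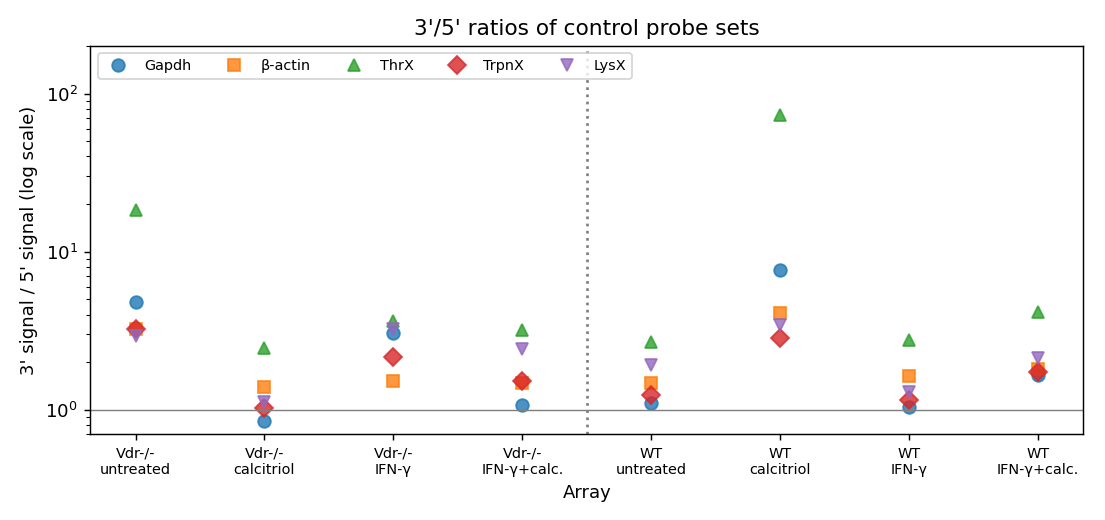
Ratio of 3' to 5' signal (log axis) of 5 control transcripts on each of the 8 arrays, 1 point per transcript and array, with no error since each condition had 1 array. The array labelled Vdr-/- untreated and the wild-type calcitriol array have the highest Gapdh ratios, 4.82 and 7.67.

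The cells carried macrophage transcripts on every array. The summed signal of 19 tested macrophage markers was between 165717 and 186704 on the 4 Vdr-/- arrays. The M-CSF receptor gene Csf1r read 23761, 14814, 18893 and 18432 on the untreated, calcitriol, IFN-gamma and double-treated arrays. Sets of markers of other cells were dim, with sums of 146 to 267 for 7 lymphocyte and natural killer cell markers, 286 to 593 for 9 neutrophil markers and 308 to 964 for 9 stromal markers. Sums were 785 to 1327 for 6 dendritic cell markers and 242 to 442 for 8 erythroid, megakaryocyte and mast cell markers. The lymphocyte, neutrophil, stromal and erythroid sums were highest on the untreated array, as was the macrophage sum, and the dendritic cell sum was highest with IFN-gamma. The stromal genes had a median fitted change of -0.86, with 7 of 9 below 0, and no gene of these 5 sets was called by limma in either direction (1 stromal gene lower at an unadjusted p under 0.05). The part of such cells in the results was not tested.

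Msn, Slfn2 and Cybb had the smallest adjusted p-values of the genes called higher. Msn, which encodes moesin, a protein that ties the actin cortex to the plasma membrane, read 60.2 in untreated and 706 in calcitriol-treated Vdr-/- cells. With IFN-gamma it read 53.3 without and 485 with calcitriol. Both arrays with calcitriol were above both without it, and the fitted change was 3.37 ± 0.422 (log2 ± SE, 2 pairs, limma adjusted p = 0.000812). Slfn2, a Schlafen family gene linked to quiescence of immune cells, read 233 and 2073 without IFN-gamma and 384 and 1685 with it. Its change was 2.64 ± 0.359 (limma adjusted p = 0.00159), with no overlap between arrays with and without calcitriol. Cybb, the membrane subunit of the phagocyte NADPH oxidase, read 378 and 3526 in the first pair and 660 and 2054 in the second. Its change was 2.43 ± 0.352 (limma adjusted p = 0.00294), and the 2 groups of arrays again did not overlap. Here and for the called genes below, such gaps follow in part from the call for a rise. The share of all tested probe sets with such a gap was not counted.

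Tlr8, an endosomal receptor of single-stranded RNA, had the largest fitted change. Its signal was 6.70 untreated and 585 with calcitriol, and 16.9 and 215 in the pair with IFN-gamma. The first value lay below the floor of 15.5 to which dim signals were raised, so the fitted 4.46 ± 0.756 (limma adjusted p = 0.0108) depends on that floor. The untreated array was at the floor for 5 of the 35 called probe sets, Tlr8, Get3, Mrpl11, Psmb7 and 1 unnamed, and for the other 30 no Vdr-/- array was.

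Called genes also included several whose products work in or near lysosomes, named here after their values were seen and not as a tested list. Ctsb, the lysosomal protease cathepsin B, read 2495 and 19200 without IFN-gamma and 2450 and 11534 with it, a change of 2.59 ± 0.431 (limma adjusted p = 0.0102). M6pr, the receptor that carries enzymes to lysosomes, read 142 and 614, then 94.3 and 488. Cd68, a lysosomal glycoprotein used as a macrophage marker, read 2201 and 7964, then 1052 and 2893. For each of these 3 genes both arrays with calcitriol were above both without it, which follows in part from their call. Scpep1, a serine carboxypeptidase, was called too, with 485 and 1751 in the first pair and 759 and 1765 in the second. Other tested probe sets of Ctsb changed by 0.28, 0.07 and 0.29, of M6pr by 0.43 and of Scpep1 by -0.16. None of these was called, and Cd68 had no other tested probe set.

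Surface and signalling genes were also among the called. Cd44, the hyaluronan receptor, read 60.1 and 604, then 84.2 and 357. Ptpn6, the phosphatase Shp-1, which restrains leukocyte signalling, read 116 and 718, then 586 and 1312, and Arhgdib, a signalling regulator of blood cells, read 311 and 2280, then 678 and 1970. For Ptpn6 the calcitriol array without IFN-gamma (718) lay only a little above the IFN-gamma array without calcitriol (586). Trpv2, a cation channel of macrophages, read 132 and 548, then 83.2 and 366, which left a clear gap between the groups. Fxyd5, Stom, Anxa4 and S100a1, which encode a regulator of the sodium pump, a membrane scaffold and a pair of calcium-binding proteins, had changes of 1.86, 2.03, 2.63 and 2.21. These are values of the called probe sets. The brightest probe sets of Cd44, Stom, Anxa4 and S100a1 changed by -0.33, 0.43, 0.29 and 1.28 and were not called.

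Antigen presentation and proteasome genes were called as well, from signals that also differed between arrays with and without IFN-gamma. Psmb9, an interferon-inducible subunit of the immunoproteasome, read 52.9 and 371 without IFN-gamma and 578 and 1198 with it. Its groups overlapped, since the IFN-gamma array without calcitriol exceeded the calcitriol array without IFN-gamma, and its call (1.93 ± 0.408, limma adjusted p = 0.0476) rests on the change within pairs. The H2-Aa probe set called, for a class II histocompatibility chain, read 214 and 602, then 1173 and 4812, and overlapped in the same way. Psmb7, a catalytic subunit of the standard proteasome, read 13.7 and 651, then 87.3 and 231.

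The remaining called genes encode proteins used in most cells. Rps9, a ribosomal protein, read 748 and 2608, then 671 and 2125. Eif4a1, an RNA helicase of translation initiation, read 193 and 1642, then 257 and 816. Sbds, needed for ribosome maturation, Mrpl11, a mitochondrial ribosomal protein, and Get3, which inserts proteins into membranes, had changes of 1.98, 3.69 and 3.45. Glrx and Txnip, of the thiol redox systems, changed by 3.33 and 2.31, and Hbp1, Spop, Rnf4, Ncoa4 and Serinc3 by 1.79 to 2.87. These are changes of the called probe sets. The brightest probe sets of Mrpl11, Rnf4, Spop, Hbp1 and Serinc3 changed by -0.18, 0.02, -0.41, -0.09 and -0.37. Those of Eif4a1, Txnip and Glrx changed by -0.05, 0.21 and 2.03, and none of these brightest probe sets was called. Ncoa4 is the ferritin receptor of autophagy, and Spop and Rnf4 act in ubiquitin ligases.

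**Figure D2:**
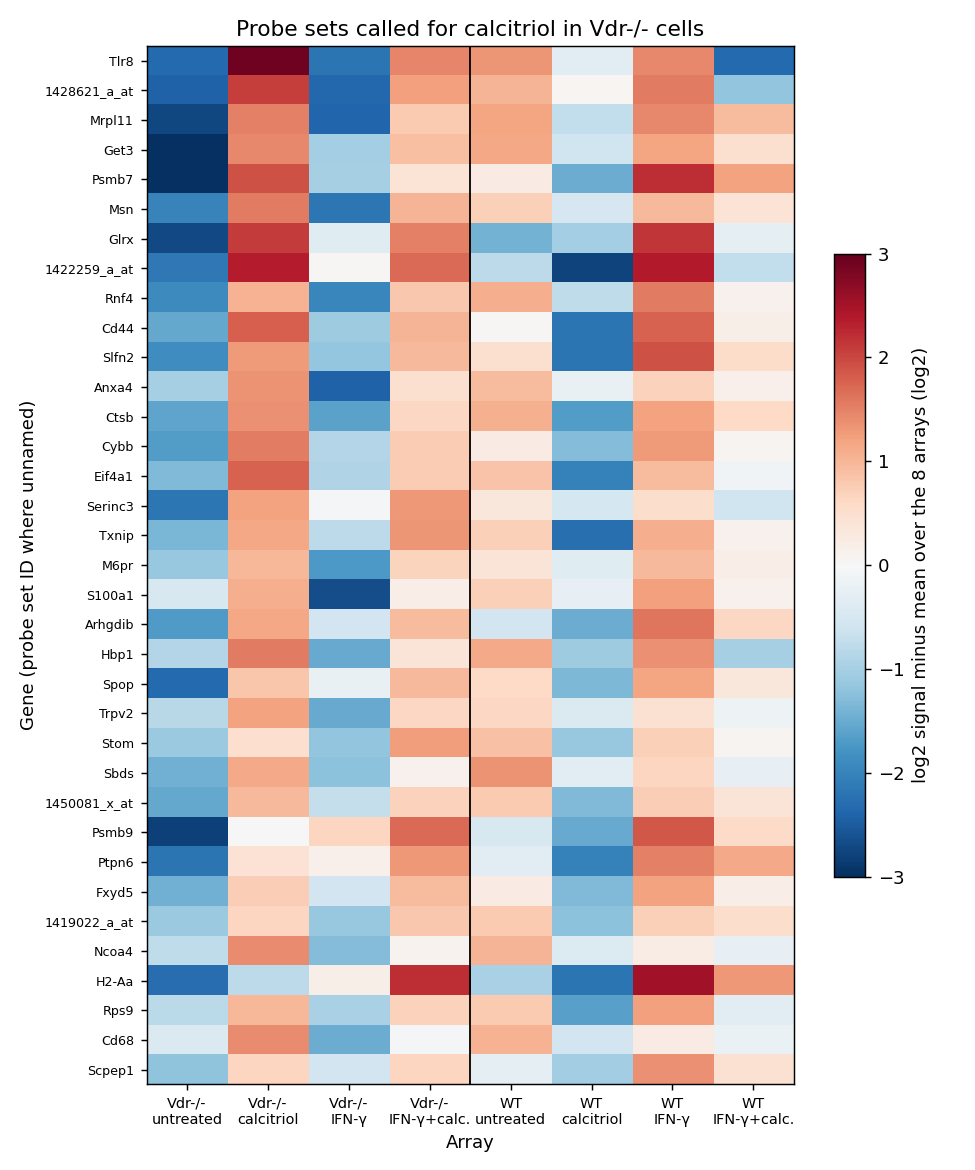
Log2 signal of the 35 called probe sets on the 8 arrays, each row centred on its mean over the arrays (colour scale from -3 to 3, values beyond it drawn at its ends). The Vdr-/- untreated and IFN-gamma columns are low, in part by the choice of these probe sets, and the wild-type calcitriol column is low, with medians of -1.58, -1.06 and -1.13.

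The 2 pairs did not contribute equally. Among the 35 called probe sets the median change was 2.81 without IFN-gamma (1.49 to 5.39) and 1.92 with it (1.05 to 3.67), and 28 changed more in the pair without IFN-gamma. Over all tested probe sets the pair without IFN-gamma had 2958 (16.4%) more than 2-fold higher and 3530 (19.5%) more than 2-fold lower with calcitriol. The pair with IFN-gamma had 2028 (11.2%) and 2139 (11.8%). The pairs shared 515 of the higher ones, 17.4% of the first list and 25.4% of the second, and 653 of the lower ones, 18.5% and 30.5%. A further 804 were more than 2-fold higher in 1 pair and more than 2-fold lower in the other. The 2 changes had the same sign for 49.4% of tested probe sets, and their Pearson correlation across probe sets, which are not replicates and share the scaling of their arrays, was 0.111.

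**Figure D3:**
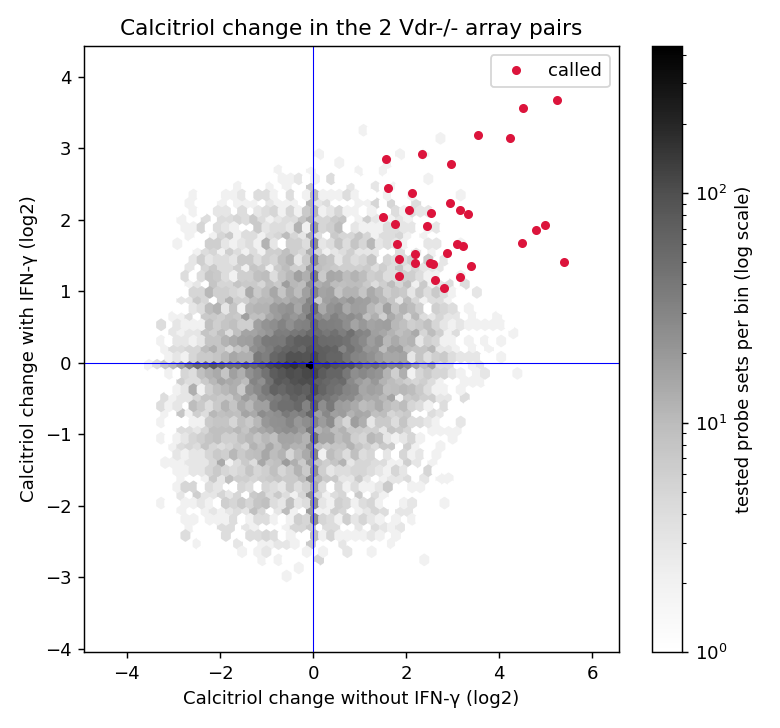
Log2 change with calcitriol in the Vdr-/- pair without IFN-gamma (horizontal) and with it (vertical) for the 18058 tested probe sets (grey, darker with more probe sets per bin) and the 35 called (red). All red points lie above 1 on both axes while the grey cloud covers all 4 quadrants, and the lines of bins along 0 are probe sets at the floor on both arrays of a pair.

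Several probe sets on this array read the same gene, and for many genes they did not move together. Of the 31 called genes, 20 had at least 1 other tested probe set, 34 in all, and none of these was called by limma, with 8 at an unadjusted p under 0.05. Their median change was 0.247, against 2.28 for the called probe sets of the same genes and -0.08 for all tested probe sets. The fitted change was above 0 for 21 and below 0 for 13, and for 32 of 34 it was smaller than that of the called probe set. The called probe sets had been chosen for this change, and the others had not passed the same test. The gap between the medians and the count of smaller changes are therefore partly set by that choice. For Ctsb the called probe set rose as given above, while a brighter one read 18457, 20611, 12519 and 16509 on the untreated, calcitriol, IFN-gamma and double-treated arrays, a fitted 0.28. For Cd44 the brighter probe set read 2342, 1463, 1515 and 1544, with its highest value on the untreated array, against 60.1, 604, 84.2 and 357 for the called one. For Msn the brighter one read 923, 1527, 841 and 1342, above on both arrays with calcitriol but by a fitted 0.70. Of the 34, 8 had fitted changes above 1. Glrx and Eif4a1 each had 1 of these, at 2.03 and 1.51, that did not pass the test (limma adjusted p = 0.136 and 0.0648). The others belonged to Stom (2.19, 1.82 and 1.13), Rps9 (2.26), Serinc3 (1.48) and S100a1 (1.28). With each gene represented by its brightest probe set, 15 of 10437 genes were called, and for the other 16 called genes the brightest probe set was not the called one. With probe sets of a gene averaged, 5 genes were called, Msn, Slfn2, Cybb, Arhgdib and Tlr8, and Slfn2, Cybb, Arhgdib and Tlr8 have no second tested probe set. Where the probe sets lie along their transcripts was not analysed here.

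**Figure D4:**
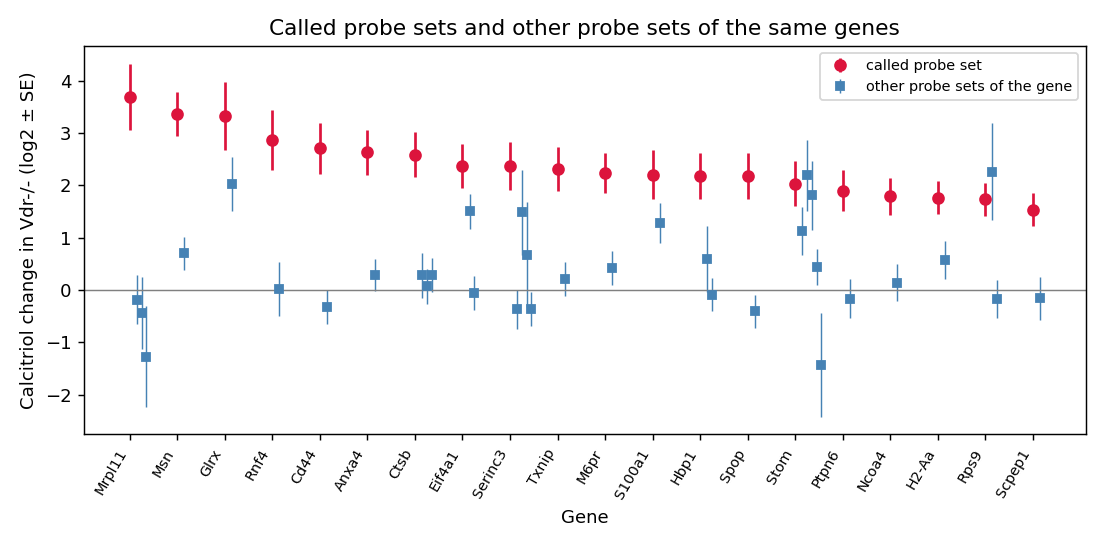
Fitted log2 change with calcitriol in Vdr-/- cells (error bars, SE of the fit) for the 20 called genes with more than 1 tested probe set, the called probe set in red and the 34 others in blue. Most blue squares lie near 0, with a median of 0.247, and all red circles, chosen for their rise, lie above 1.5.

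The vitamin D system showed no called gene on the brightest probe sets. In the list of the receptor, its partners, coregulators and enzymes, 0 of 16 tested genes were called in either direction by limma (0 also at an unadjusted p under 0.05), 3 had fitted changes above 0, and the median was -0.24, beside -0.09 over 10437 tested genes. The receptor gene itself was examined first as a check of the labels. The brighter Vdr probe set read 90.3 on the array labelled Vdr-/- untreated, 2.60 with calcitriol, 45.6 with IFN-gamma and 25.0 with both, against 6.70, 51.5, 84.4 and 227 on the corresponding wild-type arrays. The untreated arrays thus stood in the opposite order to their labels, with the Vdr-/- value above and the wild-type value below the floor. The other Vdr probe set read 63.2, 9.80, 2.50 and 23.6, again with the untreated array highest, and 5.30 on the untreated wild-type array. The sources used here do not say whether either probe set lies in the deleted part, so directions that rest on the untreated arrays are those of the libraries so labelled.

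Cyp24a1 read 45.4, 35.7, 21.0 and 3.10 on the untreated, calcitriol, IFN-gamma and double-treated Vdr-/- arrays, lower with calcitriol in each pair and not called (limma adjusted p = 0.988). Its second probe set read 106, 3.5, 8.20 and 34.9, which gave opposite directions in the 2 pairs. Cyp27b1, which makes calcitriol, read 21.9, 12.1, 19.8 and 2.50, close to or below the floor on all 4. Cyp27a1, a sterol hydroxylase that can activate vitamin D, read 588, 534, 917 and 801, and Rxra, the receptor's partner, read 102, 223, 174 and 124. The calcitriol and control arrays overlapped for Rxra and Cyp27a1. Med1, a coactivator subunit, read 360, 170, 257 and 172, lower on both arrays with calcitriol, and was not called.

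Genes that respond to vitamin D in other cells were called by limma for 0 of 28 on their brightest probe sets (1 higher at an unadjusted p under 0.05), with 11 fitted above 0 and a median of -0.19. Txnip was called on its dimmer probe set (137, 790, 208 and 893) and not on its brighter one (1137, 1064, 1438 and 2070). Cd14, the coreceptor of bacterial lipopolysaccharide, read 826 and 2272 without IFN-gamma and 1037 and 835 with it, which gave a higher value with calcitriol in the first pair and a lower one in the second. Camp, which encodes the antimicrobial peptide precursor cathelicidin, was above the floor on the calcitriol array alone, at 67.8. Thbd, thrombomodulin, read 96.0, 34.3, 10.5 and 3.5. Among 24 tested genes of other nuclear receptors 0 were called by limma, also at an unadjusted p under 0.05, with a median of -0.27.

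**Figure D5:**
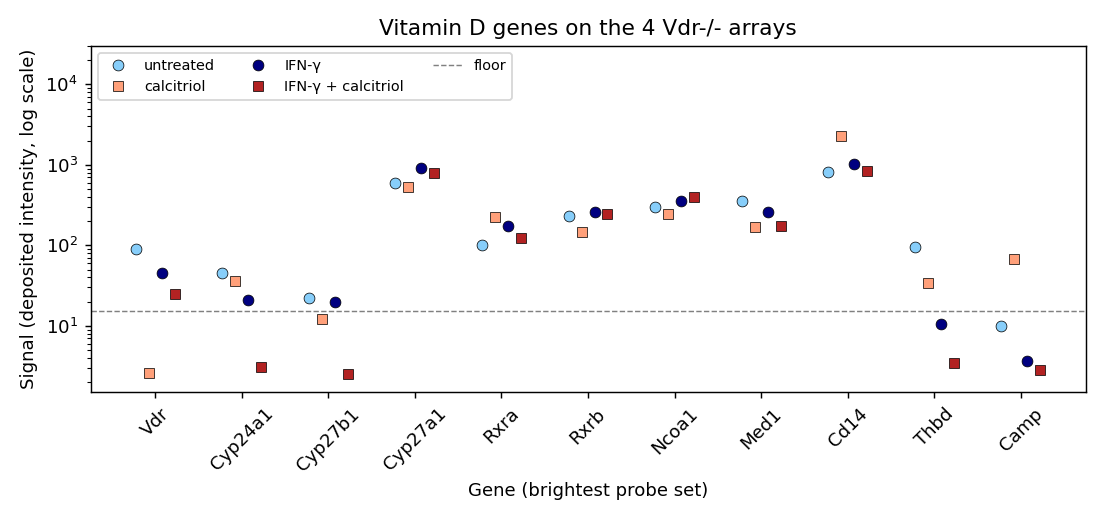
Deposited signal (log axis) of 11 vitamin D genes on the 4 Vdr-/- arrays, 1 point per array, circles without and squares with calcitriol, and the dashed line at the floor of 15.5. No gene has both squares clear above both circles, and Vdr reads 90.3 on the untreated array.

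The gene groups to which the called genes belong were read against all 10437 genes, of which 15 were called higher, 0 were called lower and 4546 had fitted changes above 0. Of 7 NADPH oxidase genes 1 was called (Cybb), 6 were above 0 and the median was 0.51. Cyba, the partner chain of Cybb, read 4126, 6579, 5089 and 6515, and Ncf4, a cytosolic subunit, read 442, 855, 579 and 813, so both oxidase genes were higher with calcitriol in each pair without passing the test. Of 39 proteasome genes 2 were called (Psmb7 and Psmb9), 31 were above 0 and the median was 0.46. Of 3 Schlafen genes 1 was called, and Slfn8 read 426, 773, 1031 and 1054. Of 29 leukocyte signalling genes 2 were called (Arhgdib and Ptpn6), 20 were above 0 and the median was 0.23. At an unadjusted limma p under 0.05, 3 oxidase, 11 proteasome, 1 Schlafen and 8 leukocyte signalling genes were higher and 0 lower. These counts include the called genes. Over all 10437 genes 393 were higher and 229 lower at that threshold.

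Of 19 genes of the Toll-like receptor pathway 1 was called (Tlr8), with a median of 0.08, and Tlr7, its closest relative on the list, read 266, 569, 204 and 255. Of 18 ion channel and calcium handling genes 1 was called (Trpv2), with a median of -0.07. Of 15 class I presentation genes 1 was called (Psmb9, counted with the proteasome too), 11 were above 0 and the median was 0.38. The class II list had 0 of 9 called by limma on brightest probe sets (1 higher at an unadjusted p under 0.05) and a median of 0.41. Cd74, the invariant chain of class II molecules, read 2522, 3773, 13362 and 18803, far above on the IFN-gamma arrays and somewhat above with calcitriol in each pair. Of 19 macrophage markers 1 was called (Cd68), 10 were above 0 and the median was 0.24. At an unadjusted limma p under 0.05, 7 of these 19 were higher and 0 lower. At that threshold the Toll-like receptor, ion channel and class I lists had 1, 2 and 3 higher and 0 lower. Trem2, a phagocytic receptor, read 402, 5417, 2283 and 3240, so that the untreated array stood alone at the low end, and it was not called (limma adjusted p = 0.160).

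The interferon gene lists held no called gene. For type I interferon-stimulated genes 0 of 23 were called by limma (9 higher and 0 lower at an unadjusted p under 0.05, beside 393 higher and 229 lower of all 10437 genes) while 22 had fitted changes above 0, with a median of 0.75. Their median change was 1.29 in the pair without IFN-gamma and 0.27 in the pair with it. Ifit2, an RNA-binding antiviral protein, read 6.80 untreated, 260 with calcitriol, 1346 with IFN-gamma and 1607 with both, and Oas2, a sensor of double-stranded RNA, read 21.0, 408, 242 and 318. Both had their lowest signal on the untreated array, which also had the highest Gapdh ratio of the 4, and neither passed the test (limma adjusted p = 0.146 and 0.177). Of 21 IFN-gamma target genes 0 were called by limma (4 higher at an unadjusted p under 0.05) and the median was 0.11. Irf1, a transcription factor induced by interferons, read 329, 429, 3711 and 4093. Cxcl9, a T cell chemokine, read 3.60, 9.10, 4311 and 4423, and Ciita, the class II transactivator, read 7.20, 18.6, 446 and 635. These 3 genes separated the arrays by IFN-gamma and not by calcitriol. Nos2, the inducible nitric oxide synthase, was below the floor on 3 of the 4 arrays and 54.9 on the untreated one.

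Other lists had no called gene in either direction by limma, with 5 higher and 3 lower at an unadjusted p under 0.05 over the 5 lists. Among 28 cytokine genes the median was 0.04, and Tnf read 84.2, 85.6, 219 and 189, Il12b 54.0, 15, 45.9 and 11.1, and Ccl5 235, 2459, 3963 and 3952. Il12b, a subunit of interleukin 12, was lower on both arrays with calcitriol and near the floor there, and the chemokine gene Ccl5 was low on the untreated array alone. The medians were -0.35 for 19 immediate early and heat shock genes, -0.21 for 21 sterol and lipid genes, 0.34 for 29 cell cycle genes and 0.14 for 11 housekeeping genes. Egr1, an immediate early transcription factor, read 187, 34.8, 155 and 81.9, lower with calcitriol in each pair. Eef1a1, a translation elongation factor, read 3608, 13838, 3359 and 8622, higher on both arrays with calcitriol and just short of the threshold (limma adjusted p = 0.0618).

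Among genes above the floor on all 4 Vdr-/- arrays with both pairs in 1 direction, some uncalled genes with the largest fitted increases and decreases are given as a description. C5ar1, the receptor of complement C5a, read 70.0 and 605 without IFN-gamma and 24.1 and 156 with it. Sting1, the adaptor of cytosolic DNA sensing, read 19.4 and 234, then 156 and 351, and Lgals9, galectin 9, read 70.5 and 466, then 68.8 and 248. In the other direction, Scrib, a cell polarity scaffold, read 179 and 23.1, then 150 and 56.8. Nf1, a negative regulator of Ras, read 122 and 31.4, then 86.7 and 17.7, and Krt10, a keratin, read 194 and 55.1, then 95.9 and 19.0. The values of the decreases lay mostly between the floor and 200, in the dim part of the signal range, and none was called.

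In wild-type macrophages the same 35 probe sets had fitted changes below 0, from -2.70 to -0.76 with a median of -1.24, while 47.6% of all tested probe sets were below 0 and their median was 0.05. The wild-type array with calcitriol alone, which had the highest Gapdh ratio of the 8, was the lowest of the wild-type arrays for 31 of the 35. Only 5 of these wild-type changes passed limma's test. Slfn2 read 1180 untreated, 188 with calcitriol, 3198 with IFN-gamma and 1254 with both in wild type. Ctsb read 15722, 2339, 17250 and 11343 there, and Tlr8 read 195, 62.6, 210 and 10.7. Across the 35 probe sets, Vdr-/- cells with calcitriol differed from wild-type cells without it by a median of 0.10, and Vdr-/- cells without calcitriol by -2.02. The 35 had been called for lower signal on the Vdr-/- arrays without calcitriol than on those with it. These medians are therefore partly set by that choice, and they were not taken over all tested probe sets.

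The calcitriol change itself was compared between genotypes, a comparison that uses the Vdr-/- change again and so is not independent of the choice of the 35. It passed limma's test for 271 of 18058 probe sets (1.5%), 240 with a higher and 31 with a lower change in Vdr-/- cells. All 35 probe sets called in Vdr-/- were among them, with differences from 2.37 to 7.16. For 268 of the 271 the fitted changes had opposite signs in the genotypes, and for 239 the Vdr-/- change was above 0 and the wild-type change below 0. By brightest probe set the difference was called for 2 of the 28 vitamin D target genes, Cd14 (2.73 ± 0.518, limma adjusted p = 0.00558) and Klf6 (4.79, limma adjusted p = 0.00255). Klf6, a zinc finger transcription factor, read 146, 913, 946 and 997 in Vdr-/- cells and 740, 21.4, 1145 and 340 in wild type. Its lowest value lay each time on the array of that genotype with the highest Gapdh ratio. Cd14 was lowest on that array in Vdr-/- (826), but in wild type on the double-treated array (228). The other tested Klf6 probe sets had differences of 1.45 and 0.70 that did not pass (limma adjusted p = 0.520 and 0.742).

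Promoters of the called genes were searched, since these genes were called together. The table of RefSeq promoters (build GRCm38.p6, 250 bases upstream of the start) held 27 of the 31. The vitamin D response element, a direct repeat with a spacer, was found on either strand for 0 of 27 and for 12 of all 27025 genes (0.0444%). The GAS element of promoters that respond to IFN-gamma, TTCNNNGAA on either strand, was found for 1 of 27 (3.7%), Tlr8, and for 2197 of all genes (8.13%). The promoters of 3 genes are printed, for the gene with the largest change and for the 2 genes with the smallest adjusted p-values among those with no second probe set to differ from the called one. They stand 5' to 3' on the gene's strand, Tlr8 from chrX:167264330-167264579 (minus strand) with its GAS match, first base 106 bases upstream, in capitals, Slfn2 from chr11:83064862-83065111 (plus strand) and Cybb from chrX:9469325-9469574 (minus strand). Slfn2 and Cybb hold neither motif in this window.
Tlr8: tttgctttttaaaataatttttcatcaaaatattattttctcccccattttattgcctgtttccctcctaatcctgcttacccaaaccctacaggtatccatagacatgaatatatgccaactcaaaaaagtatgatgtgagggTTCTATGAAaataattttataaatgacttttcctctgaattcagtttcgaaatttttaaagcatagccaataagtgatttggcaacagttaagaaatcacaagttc
Slfn2: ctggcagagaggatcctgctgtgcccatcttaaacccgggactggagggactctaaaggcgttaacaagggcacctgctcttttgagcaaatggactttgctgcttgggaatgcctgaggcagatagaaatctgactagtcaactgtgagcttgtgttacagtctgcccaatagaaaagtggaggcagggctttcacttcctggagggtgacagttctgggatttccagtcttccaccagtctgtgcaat
Cybb: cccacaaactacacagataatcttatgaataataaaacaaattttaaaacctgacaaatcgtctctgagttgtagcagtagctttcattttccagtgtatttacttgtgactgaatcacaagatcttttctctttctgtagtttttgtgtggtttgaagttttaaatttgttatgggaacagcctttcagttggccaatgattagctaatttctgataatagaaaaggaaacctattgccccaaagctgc

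The calls depended on single arrays, and with all arrays kept they depended on processing settings. They also fell to 0 with no signal filter, a stricter filter or no intensity trend. Without the array labelled Vdr-/- untreated, an additive fit over the other 7 arrays called 0 probe sets by limma, with 531 at an unadjusted p under 0.05, and without the array labelled Vdr-/- IFN-gamma it called 0, with 1347. The fitted changes of the 31 named genes stayed above 0 in both, with medians of 2.35 and 2.30. These genes had been called for a rise on the same arrays, so their sign here is not independent of that choice. When the log2 Gapdh ratio was added to the fit, it called 88, with 18 changes above 0 and 70 below, and 3 of the 35 remained. Among the Vdr-/- arrays this ratio ran along the same line as calcitriol, and the fit kept fewer residual degrees of freedom than the main one. It could not separate the ratio from calcitriol on those arrays, so these counts are not a corrected result.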

How the data were processed

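Total RNA was read on 8 one-colour arrays, 1 per condition, and the 4 Vdr-/- arrays are described here. The deposited values were linear intensity signals per probe set, which the authors had scaled to equal 2% trimmed means (as the values show). The sources used here do not name the software. Of 22690 probe sets, 64 controls were set aside. Signals under the pooled 25th percentile (15.5) were raised to it, log2 was taken, and the test covered probe sets with at least 1 signal at or above the pooled median (59.1).

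The test was limma 3.58.1 in R 4.3.3 with an intensity trend and Benjamini-Hochberg adjustment at 0.05, two-sided. The fit held genotype, IFN-gamma within genotype and calcitriol within genotype, so that IFN-gamma is a block, and left 2 residual degrees of freedom. The fit was tested on simulated data with planted changes and independent noise. That simulation did not model the control transcript ratios, so it cannot speak to their part. Genes came from the platform annotation (1 gene for 20380 probe sets, several for 691, none for 1555), and the brightest probe set stood for a gene in the 24 lists. Named genes were all called genes, 10 genes reported regardless (Vdr, Cyp24a1, Cd14, Irf1, Ciita, Nos2, Cd74, Cxcl9, Tnf and Il12b), up to 6 genes per list with the largest changes, and the largest changes above the floor. Other genes of a list are named for their role, chosen after their values were seen. The members and lists were chosen with earlier results of these data known. With 1 array per condition, the number of arrays and signal over background limit precision, and 14.8% to 16.5% of tested values on a Vdr-/- array were at the floor. Python 3.11.15 and matplotlib 3.10.9 drew the figures.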

Additional observations from a re-analysis of the deposited data

Results flagged for a closer look

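The change with calcitriol differed between genotypes, by limma's test of the difference, for 271 probe sets, and these included the called probe sets of all 31 named genes called in Vdr-/- cells. Values below are the log2 change in Vdr-/- minus that in wild type. Differences above 4 were found for Tlr8 (7.16), Mrpl11 (4.90), Psmb7 (4.76), Get3 (4.69), Slfn2 (4.64), Cd44 (4.62), Rnf4 (4.51), Hbp1 (4.47), Eif4a1 (4.36), Glrx (4.33), Txnip (4.29), Ctsb (4.27) and Msn (4.26). For Tlr8, Mrpl11, Psmb7 and Get3 the untreated Vdr-/- signal lay below the floor of 15.5, as did the double-treated wild-type signal of Tlr8, so the size and order of these differences depend on the floor. Between 3 and 4 lay Cybb (3.80), Rps9 (3.72), Spop (3.58), Anxa4 (3.48), Serinc3 (3.37), Stom (3.35), Sbds (3.29), S100a1 (3.23), Arhgdib (3.17), Fxyd5 (3.14), Psmb9 (3.09) and M6pr (3.002). The differences of H2-Aa (2.98), Trpv2 (2.93), Ptpn6 (2.92), Ncoa4 (2.74), Cd68 (2.70) and Scpep1 (2.37) were below 3. Cd14, which was not called in Vdr-/- cells alone, differed by 2.73, with a fitted 0.57 in Vdr-/- and -2.16 in wild type. For all the genes named here the Vdr-/- value was the higher, with 2 pairs of arrays per genotype, and limma adjusted p-values ran from 7.39e-05 (Slfn2) to 0.0131 (Glrx). Apart from Cd14, these genes had been called for their rise in Vdr-/- cells, which the difference uses again. Its direction and p-value are therefore not independent of that choice. The highest Gapdh 3'/5' ratio lay on an array without calcitriol in Vdr-/- (4.82) and on an array with calcitriol in wild type (7.67), and its part in these differences was not tested.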

How the results depend on the processing

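Counts below are of probe sets called for calcitriol in Vdr-/- cells (35) and for the difference between genotypes (271). The count in Vdr-/- was 18 with quantile normalization, 1 with the floor at the 10th percentile (difference 100) and 58 with the floor at the 40th. It was 29 in an additive fit over 8 arrays. It fell to 0 by limma, as did the difference, with no filter (unadjusted p under 0.05 for 1045 and 2028), a stricter filter (599 and 1378), no intensity trend (1017 and 1611), without the array labelled Vdr-/- untreated (531 and 1160) or IFN-gamma (1347 and 2106, chosen after seeing the data), without both arrays of highest 3'/5' ratio (740 and 1174) and with the untreated labels exchanged (610 and 1126). It was 0 too with the Vdr-/- arrays only, with IFN-gamma as a block (887) or no block (1131), and without each Vdr-/- pair (132 and 765) or wild-type pair (900 and 874), fits that keep 1 or 2 residual degrees of freedom. With the Gapdh covariate, which ran along the same line as calcitriol in Vdr-/-, it was 88, 70 of them lower. The difference was then 73, 40 of them lower in Vdr-/-. The cause of these shifts was not tested. No named called gene reversed in any of these, or with a gene's probe sets averaged, and their lowest fitted value was 0.37. These genes had been called for a rise and were higher in both pairs. Fits that keep the estimate or drop a pair therefore could not reverse them. Of genes not called, without the untreated array Cyp24a1 came to 0.098, Cd14 to -0.17, Nos2 to 0.36 and Cxcl9 to -0.078. Without the 2 arrays with high ratios Cd14 came to -0.23, Cxcl9 to -0.054 and Tnf to 0.21. With labels exchanged Cd14 came to -0.083, Ciita to -0.72, Cxcl9 to -0.34 and Tnf to 0.56. The covariate gave Cd14 -0.25, Ciita -0.45 and Tnf 1.73. Cd14 was -0.31 without the Vdr-/- pair lacking IFN-gamma, Tnf 0.024 without the pair with it, and Ciita -0.38 with probe sets averaged. The main fit paired the arrays by IFN-gamma. Calls in the gene lists came to 0 without the untreated array. Signals at or below 15.5 have no order.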
